A study of Mus musculus with 6 samples.

Results

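Ptx3, Lcn2, Saa3, Hp and Cp encode secreted proteins of the acute-phase response, and their transcripts were followed in endothelial cells grown from mouse brain and deleted for Erg and Fli1. The 5 genes were taken by name from a count table of 52636 genes. They were selected on their knockout and control values in these same libraries, so the values below describe them, no p-value is given for them, and the calls counted once below support nothing. The study held 3 libraries of the Erg and Fli1 double knockout, called knockout here, and 3 of wild-type controls. All 6 samples, controls included, had received 4-OHT (hydroxytamoxifen), given to induce the deletion. The sources used here name no Cre driver, floxed allele, strain, age or number of animals. Cells were then sorted as alive, free of the leukocyte protein CD45, and positive for CD31 (Pecam1) and for VE-cadherin (Cdh5). Erg and Fli1 are ETS-family transcription factors, and the series title names the endothelial fate they enforce as its subject.

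The acute-phase response is the change in secreted proteins that follows infection or injury. In liver it is driven by interleukin 6 through gp130 and STAT3, by interleukin 1 and tumour necrosis factor through NF-kB, and by the transcription factors C/EBP beta and C/EBP delta. Several of its proteins are also made locally, by endothelial cells, fibroblasts and myeloid cells among others. Ptx3 encodes pentraxin 3, a soluble recognition protein that binds microbes and complement components. Lcn2 encodes lipocalin 2, which captures the siderophores with which bacteria take up iron. Saa3 encodes a serum amyloid A protein that mice make largely outside the liver. Hp encodes haptoglobin, which binds free haemoglobin, and Cp encodes ceruloplasmin, a copper-containing ferroxidase that works with the iron exporter ferroportin.

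The regions around the transcription starts of these genes are shown because motifs of the factors named above can be looked for there, and a C/EBP motif was found in each matched gene. RefSeq promoter windows on GRCm38.p6, from 250 bases before to 50 after an annotated start, were matched for 4 of the 5 genes, all but Hp. The search took 5 motifs on both strands: GGGANNNNCC (NF-kB), TTGCNNAA (C/EBP), TTCNNNGAA (STAT), TGANTCA (AP-1) and AGGAAG (ETS factors). Capitals mark each match, in the letters of the gene's own strand, 5′ to 3′.
Ptx3, chr3:66219637-66219936, plus strand: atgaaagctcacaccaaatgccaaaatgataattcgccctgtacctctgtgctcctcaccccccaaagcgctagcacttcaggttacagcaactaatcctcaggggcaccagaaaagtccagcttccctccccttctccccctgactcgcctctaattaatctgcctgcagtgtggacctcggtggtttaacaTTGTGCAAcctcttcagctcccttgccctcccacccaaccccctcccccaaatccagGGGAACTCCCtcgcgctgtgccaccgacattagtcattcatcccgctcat
Lcn2, chr2:32387690-32387989, minus strand: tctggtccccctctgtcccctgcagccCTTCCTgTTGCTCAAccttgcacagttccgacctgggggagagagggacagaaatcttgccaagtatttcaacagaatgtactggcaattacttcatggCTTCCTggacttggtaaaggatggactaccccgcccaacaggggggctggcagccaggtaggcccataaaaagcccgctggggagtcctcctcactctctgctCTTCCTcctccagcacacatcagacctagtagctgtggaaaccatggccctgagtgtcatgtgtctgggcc
Saa3, chr7:46715627-46715926, minus strand: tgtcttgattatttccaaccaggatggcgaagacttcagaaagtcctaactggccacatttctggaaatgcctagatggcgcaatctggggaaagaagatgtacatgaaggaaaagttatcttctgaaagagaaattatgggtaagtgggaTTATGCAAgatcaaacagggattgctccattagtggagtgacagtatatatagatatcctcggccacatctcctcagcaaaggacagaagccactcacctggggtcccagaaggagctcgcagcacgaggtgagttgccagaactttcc
Cp, chr3:19956999-19957298, plus strand: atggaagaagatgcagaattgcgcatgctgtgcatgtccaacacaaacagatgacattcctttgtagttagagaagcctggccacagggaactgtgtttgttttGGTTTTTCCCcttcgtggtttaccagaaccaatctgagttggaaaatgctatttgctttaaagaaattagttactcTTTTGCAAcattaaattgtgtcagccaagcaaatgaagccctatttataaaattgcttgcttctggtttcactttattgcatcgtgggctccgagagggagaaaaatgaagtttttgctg

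TTGCNNAA was present for 4 of 4 matched genes, as TTGTGCAA beginning 57 bases before the start of Ptx3, TTGCTCAA 216 bases before that of Lcn2, TTATGCAA 99 bases before that of Saa3 and TTTTGCAA 70 bases before that of Cp. Over all 32841 windows of this length 10.8% held it. Ptx3 also had GGGAACTCCC at its start, which matches GGGANNNNCC on both strands, and Cp had GGTTTTTCCC 146 bases before its start; 20.7% of all windows held this motif. Lcn2 had CTTCCT, the reverse strand of AGGAAG, at 3 places, and 35.4% of all windows held that motif. TTCNNNGAA was in none of these windows and in 8.30% of all. Cp had a further annotated start, whose window (chr3:19956804-19957103) held only TGANTCA, present in 7.81% of all windows. No match overlapped one of another motif. These are matches of letters, not binding sites.

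Library totals were 17274639 to 19410458 counts. Levels are given as CPM, counts relative to library size with the sizes scaled by TMM (trimmed mean of M-values), and tests over all genes used edgeR's quasi-likelihood test at an adjusted p under 0.05. Of the targeted genes, Erg had 70.2, 88.3 and 109 CPM in knockouts and 656, 223 and 609.6 CPM in controls (log2 fold change -2.48, SE 0.44, edgeR adjusted p = 0.0137). Fli1 had 57.0 to 68.5 CPM in knockouts and 64.1 to 92.1 CPM in controls, and the groups overlapped (log2 fold change -0.32, edgeR adjusted p = 0.181; without control 2, -0.48 and 0.00346). Which exons were deleted is not stated, and counts per gene include reads of any that remain. All 14 endothelial markers had at least 1 CPM in all 6 libraries, and for 13 of 14, all but Fli1, every knockout was below every control. The share of all tested genes with every knockout below every control was not counted. Myeloid markers summed to 3.74 to 4.46 CPM in knockouts and 3.64 to 11.2 CPM in controls, with Ly6g at 0 throughout. Hepatocyte markers summed to at most 1.12 CPM in knockouts and 1.74 CPM in controls, with Alb at 0 in every library.

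Control 2 stood apart from its group. In a chi-square test of counts over genes, the statistic divided by its degrees of freedom was 190 and 173 for control 2 against controls 1 and 3. Between controls 1 and 3 it was 5.80. The 13 fibroblast markers summed to 1696 to 2950 CPM in knockouts. Their sum was 13304 CPM in control 2, with 465 and 1220 CPM in the other controls, and 12 of 13 were higher in control 2 than in either other control. The share of all tested genes with control 2 as the highest control was not counted. The 13 mural markers summed to 785 to 1580 CPM in knockouts, against 4316 CPM in control 2 and 478 to 593 CPM in the others. Endothelial markers summed to 2749 to 3574 CPM in knockouts, against 7467 CPM in control 2 and 16476 to 16491 CPM in the others. Control 2 was also the only control with Xist, at 611 CPM, whereas knockouts 2 and 3 had 431 and 573 CPM and the other libraries at most 5.32 CPM. The Y-linked gene Ddx3y had 116 CPM in knockout 1 and 109.6 and 114 CPM in controls 1 and 3, with at most 0.391 CPM in the libraries with high Xist. Each group thus held RNA of both sexes, which cannot all come from 1 animal. The labels do not say how many animals or cultures a group had, so p-values measure only the spread between these libraries.

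**Figure D1:**
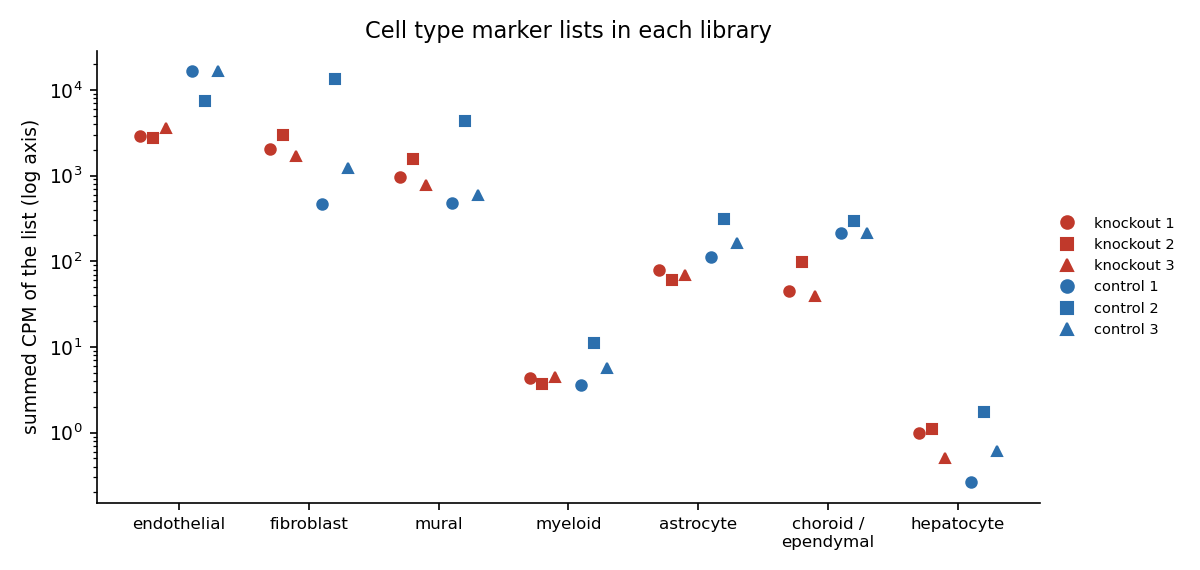
Summed CPM of 7 cell type marker lists in each library (log axis; red knockouts, blue controls, symbols for the replicate number). Control 2 (blue square) has the highest fibroblast sum, 13304 CPM, and the highest mural sum, 4316 CPM, of the 6 libraries.

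Ptx3 (ENSMUSG00000027832, GRCm38 chromosome 3, 66219910 to 66225805) was the member whose levels depended least on control 2. It had 1263, 1235 and 1033 CPM in knockouts and 28.0, 38.8 and 31.0 CPM in controls 1, 2 and 3. The groups did not overlap, and control 2 lay close to the other controls. Means were 1177 ± 126 CPM in knockouts and 32.6 ± 5.57 CPM in controls (SD, n = 3 each), a ratio of 36.1. The log2 fold change was 5.17 (SE 0.18) with all libraries and 5.28 (SE 0.12) without control 2.

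Cp (ENSMUSG00000003617, chromosome 3, 19957054 to 20009145) was the most abundant member by CPM and the steadiest within the knockouts. Ceruloplasmin transcripts stood at 5759, 6056 and 5537 CPM in knockouts and at 118, 576 and 120.2 CPM in controls. Every knockout was above every control, and control 2 was 4.83 times the mean of the other controls. The mean of 5784 ± 261 CPM in knockouts, against 272 ± 264 CPM in controls (SD, n = 3 each), gave a ratio of 21.3, and without control 2 the ratio was 48.5. The log2 fold changes were 4.41 (SE 0.76) and, without control 2, 5.56 (SE 0.08). Exons of Hps3 on the opposite strand cover 1.13% of the Cp exons.

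Lcn2 (ENSMUSG00000026822, chromosome 2, 32384633 to 32388252) had the largest ratio once control 2 was set aside. Lipocalin 2 transcripts reached 1406, 2159 and 1492 CPM in knockouts, against 5.06, 209.6 and 6.14 CPM in controls. No knockout overlapped a control, yet control 2 had 37.5 times the mean of controls 1 and 3. Mean levels were 1686 ± 412 CPM in knockouts and 73.6 ± 118 CPM in controls (SD, n = 3 each). The ratio was 22.9 with all libraries and 301 without control 2, and the log2 fold change was 4.52 (SE 1.61) with all and 8.20 (SE 0.28) without it.

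Hp (ENSMUSG00000031722, chromosome 8, 109575128 to 109579172) followed the same order at low levels. The counts were 161, 396 and 159 in knockouts and 3, 72 and 3 in controls 1, 2 and 3. In CPM these were 8.27, 22.1 and 8.86 in knockouts and 0.158, 3.92 and 0.164 in controls, without overlap. The log2 fold change was 3.20 (SE 1.24) with all libraries and 6.25 (SE 0.78) without control 2, where each remaining control had 3 counts.

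Saa3 (ENSMUSG00000040026, chromosome 7, 46711998 to 46715700) was the exception. It had 22.9, 78.8 and 32.6 CPM in knockouts and 0.0527, 142 and 0.767 CPM in controls, from 1, 2612 and 14 control counts. The groups overlapped, because control 2 was the highest of all 6 libraries while controls 1 and 3 were the lowest. The log2 fold change was -0.09 (SE 1.95) with all libraries and 6.73 (SE 0.91) without control 2. Of the 2602 distinct stretches of 50 bases in Saa3 transcripts, 93 also occur in transcripts of other genes, and 9 of these in other Saa genes; none was shared for the other 4 members. Saa1 had at most 0.0514 CPM in knockouts and 1.96 CPM in control 2, and Saa2 had no count in knockouts and 8 counts, all in control 2, in controls.

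**Figure D2:**
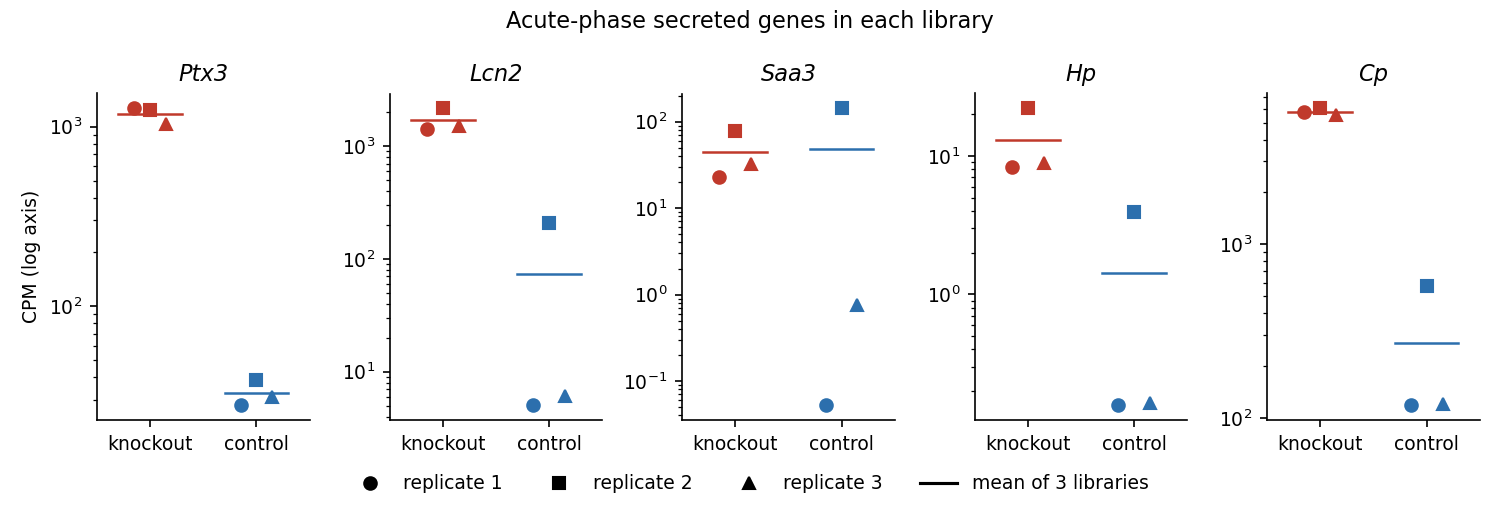
CPM of each gene in each library on log axes that differ between panels (red knockouts, blue controls, symbols for the replicate number, lines for the mean of 3 libraries). The Ptx3 controls lie together at 28.0 to 38.8 CPM, while in the other 4 panels control 2 stands well above controls 1 and 3 and for Saa3 above every knockout.

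For 4 of 5 members every knockout was above every control, as for 25.0% of all tested genes. With all libraries 2 of 5 members, Ptx3 and Cp, were called higher and 0 lower (edgeR; also 0 lower at an unadjusted p under 0.05 and by DESeq2), beside 13.1% of the 13901 tested genes called higher and 11.7% lower. Without control 2 all 5 were called higher, beside 25.5% of 14178 tested genes called higher and 24.8% lower. The members had been chosen on this contrast, so nothing is read from these counts. All 5 passed the filter on low counts, Saa3 and Hp through the knockouts, since neither reached 10 counts in every control. Of all calls 52.8% were higher after TMM scaling, against 66.4% after scaling by library size alone, while the 4 members other than Saa3 were higher under both. In bulk RNA a difference in the number of cells that express a gene and in the RNA per cell cannot be told apart.

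**Figure D3:**
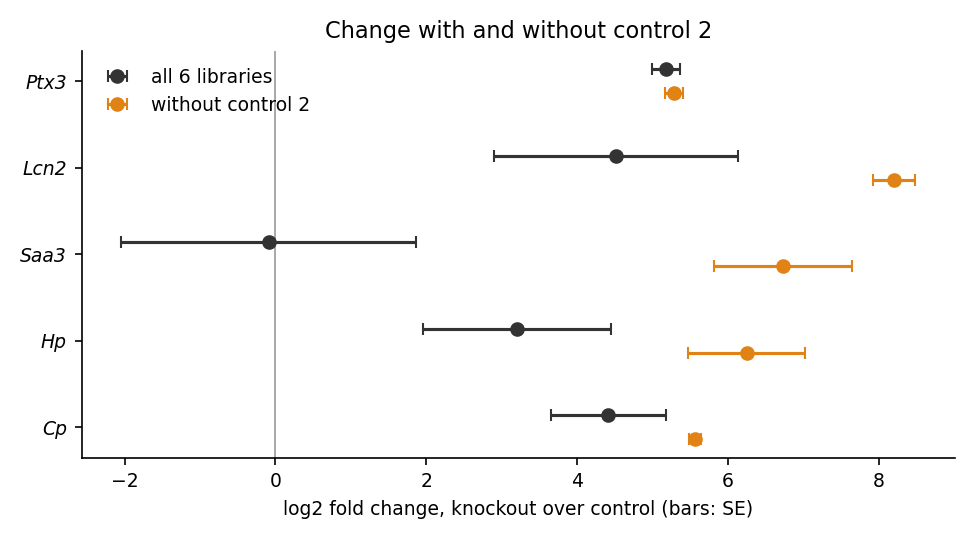
Log2 fold change of each gene, knockout over control, with all 6 libraries (dark) and without control 2 (orange); bars are standard errors. Ptx3 hardly moves, at 5.17 and 5.28, whereas Saa3 stands at -0.09 and 6.73.

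Control 2 was above controls 1 and 3 for 5 of 5 members, and more than 4-fold above their mean, on the log2(CPM + 0.5) scale, for 4 of 5. Of all tested genes 4.52% were that far above. The mean of the knockouts was 30.4 times control 2 for Ptx3, 10.04 times for Cp, 8.04 times for Lcn2 and 3.33 times for Hp, whereas control 2 was 3.18 times the knockout mean for Saa3. The fibroblast and mural sums given above moved with control 2 in the same direction, and their part in these values was not tested. In the knockouts the fibroblast sum was above that of controls 1 and 3, and most of it was Dcn, a proteoglycan gene of the fibroblast list, at 1421, 2109.5 and 1343 CPM in knockouts and 3.95, 317 and 6.96 CPM in controls. Col1a1, the main fibrillar collagen gene of that list, had 104 to 235 CPM in knockouts, 5489 CPM in control 2 and 214 and 628 CPM in the other controls.

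Knockout 2 was the highest knockout for Lcn2, Saa3, Hp and Cp. It exceeded the mean of knockouts 1 and 3 by a factor of 2.84 for Saa3, 2.58 for Hp and 1.49 for Lcn2, but only 1.07 for Cp and 1.08 for Ptx3. Knockout 2 passed 1.4 times that mean for 3 of 5 members and 5.20% of tested genes, a limit set after these values were seen. The coefficient of variation among knockouts was 66.8% for Saa3, 59.8% for Hp, 24.4% for Lcn2, 10.7% for Ptx3 and 4.50% for Cp. Saa3 and Hp were also the members with the fewest counts. In knockouts 1, 2 and 3 these were 445, 1412 and 585 for Saa3 and 161, 396 and 159 for Hp. Summed fibroblast markers were highest in knockout 2 among the knockouts (2950 CPM). The part of either in this spread was not tested.

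Levels were compared between genes after division by exonic length, the union of all annotated exons of a gene. This length can exceed that of the transcripts made, so the order of the genes and their ranks depend on it. In knockouts Lcn2 had 643 ± 157 CPM per kb, Cp 605 ± 27.2, Ptx3 439 ± 46.9, Saa3 17.2 ± 11.5 and Hp 8.14 ± 4.87 CPM per kb (SD, n = 3). The ranges of Lcn2 and Cp overlapped, as did those of Saa3 and Hp, while Ptx3 lay below the first pair and above the second in every knockout. Among 13901 tested genes Lcn2 ranked 21 to 37, Cp 31 to 32 and Ptx3 44 to 51 in the knockouts. In controls 1 and 3 Cp led with 12.4 and 12.6 CPM per kb, followed by Ptx3 with 10.4 and 11.6, Lcn2 with 1.93 and 2.34, and Saa3 and Hp with at most 0.294. Control 2 had yet another order, with Lcn2 at 79.9, Cp at 60.2, Saa3 at 54.6, Ptx3 at 14.5 and Hp at 2.44 CPM per kb.

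**Figure D4:**
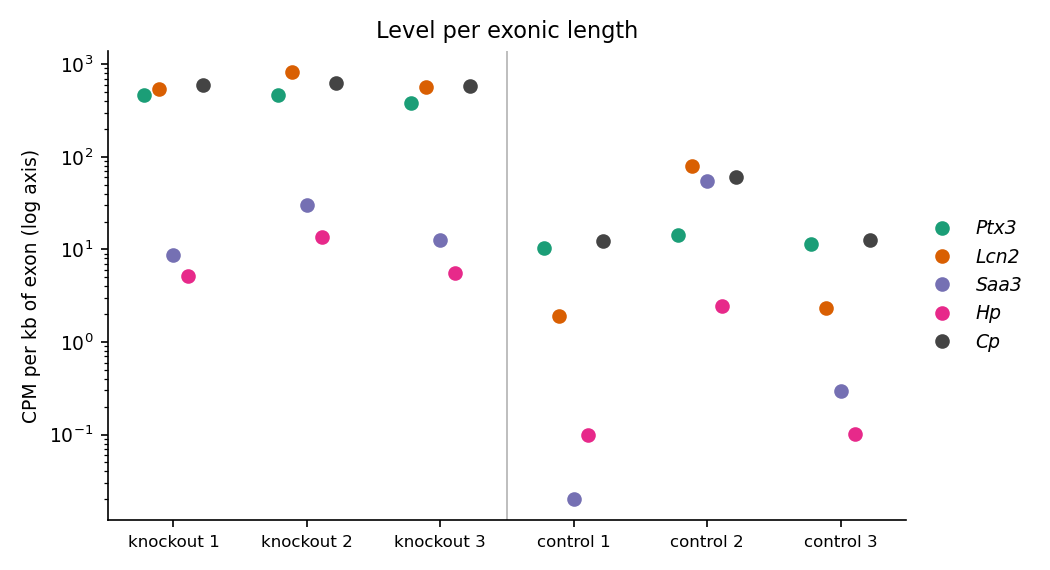
CPM per kb of exon of the 5 genes in each library (log axis; knockouts left, controls right). Lcn2, Cp and Ptx3 stand at 385 to 823 CPM per kb in the knockouts, and Saa3 changes its place, near Lcn2 and Cp in control 2 and far below them elsewhere.

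The genes most like each member were sought by Euclidean distance between mean-centred log2(CPM + 0.5) values over the 6 libraries, among 9106 genes averaging 10 CPM or more. Ptx3 was nearest to Cadm1 (154, 141 and 124 CPM in knockouts, 2.42, 3.92 and 3.89 CPM in controls), at a distance of 0.33, then to Tnfsf8 and Cxcl5. Tnfsf8 had 0, 2 and 0 counts in controls 1, 2 and 3, so its distance depends on the 0.5 CPM added to each value. Its log2 fold change was 9.14, against 5.17 for Ptx3. Cp was nearest to Sema5a (distance 0.49), Ifitm1 and the colony-stimulating factor gene Csf3. Lcn2 lay closest to Dcn (0.70), the semaphorin gene Sema3c and Steap4, a metalloreductase gene. Hp was nearest to Aldh1a1, at 18.0, 36.7 and 16.7 CPM in knockouts and 0.316, 8.55 and 0.603 CPM in controls (distance 0.62), then to Col8a1 and Dusp27. For Saa3 the nearest genes, Fmod, Cemip and Mgp, were more distant (2.30 to 2.72). All 3 had control 2 within 2-fold of the lowest knockout or above it, with Fmod at 14.6, 18.5 and 14.04 CPM in knockouts and 26.8 CPM in control 2. Between members the smallest distance was 1.59, for Ptx3 and Cp, and the largest 6.44, for Ptx3 and Saa3.

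Among other acute-phase genes, the complement genes C3 and Cfb, the antiprotease genes Serpina3f and Serpina3g, Itih4 and Cd14 rose, while fibrinogen genes were below the filter. Of 35 listed, 15 were tested, 6 rose, 1 fell and 8 did not pass. These are 40% higher and 6.67% lower, beside 13.1% and 11.7% of all tested genes, with a median log2 fold change of 2.53 against 0.00 over all tested genes. C3, the central complement gene, rose to 340, 441 and 323 CPM in knockouts, against 1.95, 11.3 and 1.10 CPM in controls (log2 fold change 6.27, SE 0.97, edgeR adjusted p = 0.00898). Serpina3g, a serine protease inhibitor gene, had 34.0, 43.0 and 28.5 CPM in knockouts and 1.84, 3.48 and 1.48 CPM in controls (log2 fold change 3.95, SE 0.37). The Serpina3 genes are close copies of each other, so the split of reads among them is uncertain. Exons of Gm20547 on the same strand cover 79.5% of the Cfb exons, so the Cfb count is uncertain too. Cd14, the lipopolysaccharide co-receptor gene, rose to 143 ± 34.0 CPM in knockouts, against 17.9 ± 14.3 CPM in controls (log2 fold change 3.00, SE 0.59, edgeR adjusted p = 0.0179). Its call was lost without control 3 (log2 fold change 2.73) or any 1 knockout (2.80 to 3.12). Some genes of plasma proteins made by liver were at or near 0: Fga, Fgg, Hamp and Serpina1a had no count in any library, and Serpina3n, an acute-phase antiprotease gene, had at most 0.279 CPM in knockouts and 1.74 CPM in controls. Others were well above 0, such as Lbp, the lipopolysaccharide-binding protein gene, at 111, 154 and 124 CPM in knockouts and 8.17, 85.6 and 10.5 CPM in controls (edgeR adjusted p = 0.193). Except for Serpina3n, these were selected with their values known. Without control 2, 13 rose and 2 fell (86.7% and 13.3%, beside 25.5% and 24.8% of all tested genes), and the log2 fold change of C3 was 7.87.

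In the gp130 pathway the receptor genes Il6ra and Lifr and the feedback gene Socs3 rose, whereas the values of its ligand genes depended on control 2. Of 24 listed gp130, STAT3 and C/EBP genes, 22 were tested, 4 rose and 1 fell (median log2 fold change 0.24). These are 18.2% higher and 4.55% lower, near the 13.1% and 11.7% of all tested genes, so with all libraries the list as a whole is no result. Il6ra, the interleukin 6 receptor gene, had 36.2, 35.3 and 34.4 CPM in knockouts and 4.37, 4.74 and 3.34 CPM in controls (log2 fold change 3.08, SE 0.15, edgeR adjusted p = 5.063e-04). Lifr, the receptor gene for leukaemia inhibitory factor, had 126 ± 23.6 CPM in knockouts and 10.4 ± 1.56 CPM in controls (log2 fold change 3.61, SE 0.19), and Socs3, the STAT3 feedback inhibitor gene, 123.1 ± 7.69 CPM in knockouts and 34.0 ± 1.08 CPM in controls (log2 fold change 1.86, SE 0.07). For these 3 genes control 2 lay close to the other controls. Jak2, a kinase gene of the receptor, was the other gene that rose and Tyk2, a related kinase gene, the one that fell, both named because the counts were small. Jak2 had 159 to 165 CPM in knockouts and 139.6 to 140.5 CPM in controls, and its call was lost without any 1 library other than control 2. Tyk2 had 23.9 to 27.2 CPM in knockouts and 32.6 to 35.4 CPM in controls, and its call was lost without control 3, knockout 1 or knockout 2.

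The ligand gene Il6 had 18.3, 19.8 and 13.4 CPM in knockouts and 2.11, 97.2 and 4.22 CPM in controls, with control 2 the highest library, as for Saa3. The log2 fold change of Il6 was -1.01 (edgeR adjusted p = 0.625) with all libraries and 2.41 (edgeR adjusted p = 6.333e-04) without control 2. Lif had 83.7 to 95.2 CPM in knockouts and 4.37, 72.3 and 5.86 CPM in controls. The shared receptor gene Il6st stood at 912 ± 39.7 CPM in knockouts and 480.5 ± 270.5 CPM in controls, and Stat3 at 383 ± 7.38 CPM in knockouts and 205 ± 94.6 CPM in controls. Cebpb had 28.7, 33.3 and 33.8 CPM in knockouts and 2.32, 13.1 and 3.398 CPM in controls (log2 fold change 2.34, edgeR adjusted p = 0.0511), and Cebpd 149, 120.5 and 151 CPM in knockouts and 19.1, 81.4 and 22.0 CPM in controls (log2 fold change 1.78, edgeR adjusted p = 0.0801). Without control 2 these 5 genes were all called higher, with log2 fold changes of 4.09 for Lif, 1.46 for Il6st, 1.31 for Stat3, 3.45 for Cebpb and 2.74 for Cebpd, and 16 genes of the list rose and 2 fell (72.7% and 9.09%, beside 25.5% and 24.8% of all tested genes). Opposite-strand exons cover 20.7% of the Cebpb exons and 15% of those of Cebpd, so their counts are uncertain.

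Genes of the interleukin 1, tumour necrosis factor and NF-kB pathway rose in 19 of 32 tested cases and fell in 0, with a median log2 fold change of 0.53 (edgeR); 0 also fell at an unadjusted p under 0.05 and by DESeq2, and 40 were listed. Those called higher are 59.4% of the tested members, beside 13.1% higher and 11.7% lower of all tested genes. Il1r1, the interleukin 1 receptor gene, had 215, 260.3 and 213 CPM in knockouts and 53.6, 58.4 and 51.5 CPM in controls (log2 fold change 2.07, SE 0.11, edgeR adjusted p = 6.232e-04). Rel, an NF-kB subunit gene, had 36.5 ± 1.67 CPM in knockouts and 7.23 ± 2.23 CPM in controls (log2 fold change 2.33, SE 0.23), and Irak3, an inhibitor of interleukin 1 signalling, 32.7 ± 2.23 CPM in knockouts and 7.98 ± 2.59 CPM in controls (log2 fold change 2.04, SE 0.24). Nfkbia, the NF-kB inhibitor that NF-kB itself induces, rose to 294 ± 4.80 CPM in knockouts, against 127 ± 12.2 CPM in controls (log2 fold change 1.21, SE 0.09), and Nfkb1 to 214 ± 4.85 CPM in knockouts, against 147 ± 3.16 CPM in controls (log2 fold change 0.54, SE 0.05). For Rela the values were 143 to 158 CPM in knockouts and 139 to 215 CPM in controls (edgeR adjusted p = 0.275). Without control 2 Rela was called lower (log2 fold change -0.47, edgeR adjusted p = 0.00156). Nfkbiz, a cofactor needed for Lcn2 induction in mouse cells, had 102, 103 and 102 CPM in knockouts and 30.7, 111 and 32.3 CPM in controls, and Zc3h12a, an RNase gene that limits such transcripts, 72.4, 80.3 and 72.0 CPM in knockouts and 7.06, 34.7 and 8.49 CPM in controls. Neither was called with all libraries (edgeR adjusted p = 0.301 and 0.0598) and both were without control 2, when their log2 fold changes were 1.66 and 3.23 and 24 genes of the list rose and 3 fell (75% and 9.38%, beside 25.5% and 24.8% of all tested genes). Leaving out control 1, control 3 or any 1 knockout, 11 to 14 rose, the fewest without control 3 (11) and knockouts 1 and 2 (12 each). The number called higher over all tested genes fell too, from 1816 with all libraries to as few as 803 without 1 library. The share in each of these settings is not given here. The ligand genes Il1b and Il17a had no count in any library, and Tnf had 0.565 to 0.837 CPM in knockouts and 0.109 to 0.493 CPM in controls, all 3 selected with their values known. Il33, a further listed ligand gene selected in the same way, had 5.96, 4.80 and 2.56 CPM in knockouts. In controls 1, 2 and 3 it had 0.527, 182 and 2.74 CPM (edgeR adjusted p = 0.215).

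**Figure D5:**
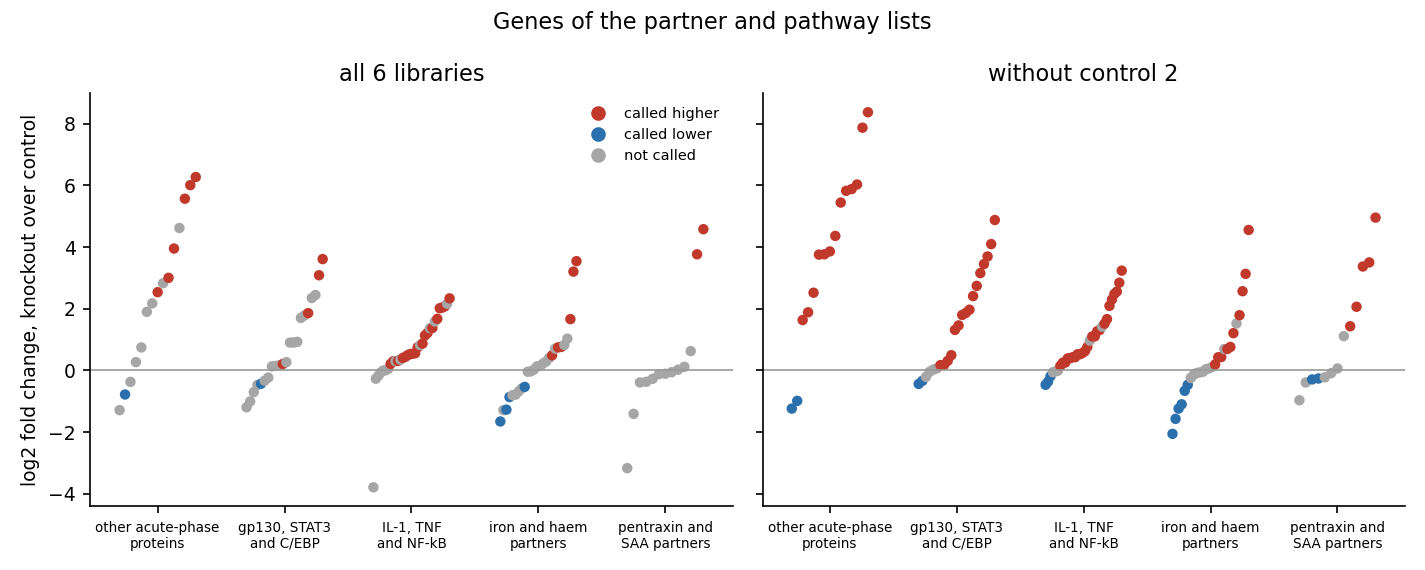
Log2 fold change, knockout over control, of each tested gene of 5 lists, with all libraries (left) and without control 2 (right); red and blue points were called higher and lower, grey points were not called. In the interleukin 1, tumour necrosis factor and NF-kB list 19 genes were called higher with all libraries and 24 without control 2.

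Among partners of Cp, Lcn2 and Hp in iron and haem handling, single genes were called in both directions. Of 31 listed, 26 were tested, 6 rose, 4 fell and 16 did not pass (median log2 fold change 0.14). These are 23.1% higher and 15.4% lower, beside 13.1% and 11.7% of all tested genes. The share called lower is near that of all tested genes, so no fall of the list as a whole is read from it. Fth1, the ferritin heavy chain gene, had 2566, 2827 and 2521 CPM in knockouts and 705, 1011 and 786 CPM in controls (log2 fold change 1.66, SE 0.16, edgeR adjusted p = 0.00285), and reads shared with its pseudogenes make this level uncertain. Slc40a1, the gene of the exporter ferroportin, fell to 24.5, 25.0 and 33.1 CPM in knockouts, against 119.7, 36.7 and 104 CPM in controls (log2 fold change -1.66, SE 0.45, edgeR adjusted p = 0.0448). Hmox1, encoding a haem oxygenase, fell to 284, 299 and 319.9 CPM in knockouts, against 800.4, 433 and 949 CPM in controls (log2 fold change -1.27, SE 0.29, edgeR adjusted p = 0.0276). Both falls lost their calls without control 1, control 3 or any 1 knockout, at log2 fold changes of -1.37 to -1.81 for Slc40a1 and -1.05 to -1.31 for Hmox1. The lipocalin receptor gene Slc22a17 had 6.97 to 9.69 CPM in knockouts and 8.93 to 20.3 CPM in controls (edgeR adjusted p = 0.212), and Hpx, whose protein binds haem, 0.617 to 1.73 CPM in knockouts and 2.37 to 2.99 CPM in controls (edgeR adjusted p = 0.0631). Hpx was called lower without control 2 (log2 fold change -1.24) or knockout 3 (-1.77). Without control 2, 10 genes of the list rose and 6 fell (38.5% and 23.1%, beside 25.5% and 24.8% of all tested genes).

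Among binding partners of pentraxin 3 and serum amyloid A, 28 were listed, 13 tested, 2 rose and 0 fell (edgeR, median log2 fold change -0.11); 0 fell at an unadjusted p under 0.05 and 1 by DESeq2. The 15.4% called higher is near the 13.1% of all tested genes, so with all libraries the list as a whole is no result. Of all tested genes 11.7% were called lower. Tlr2, a receptor gene for serum amyloid A, rose to 51.9, 70.9 and 50.3 CPM in knockouts, against 4.90, 2.78 and 5.04 CPM in controls (log2 fold change 3.76, SE 0.28, edgeR adjusted p = 0.00161). Tlr4 had 60.0 to 65.3 CPM in knockouts and 49.1 to 79.7 CPM in controls (edgeR adjusted p = 0.834), and without control 2 it was called lower (log2 fold change -0.26). Tnfaip6, whose protein joins pentraxin 3 in hyaluronan matrix, had 0.874 to 2.57 CPM in knockouts and 0.421 to 5.01 CPM in controls. The short pentraxin genes Crp and Apcs had at most 1 count in a library. Without control 2, 5 genes of the list rose and 2 fell (38.5% and 15.4%, beside 25.5% and 24.8% of all tested genes).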

How the data were processed

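Polyadenylated RNA of 6 sorted endothelial samples was sequenced. The labels' protocols name both an unstranded and a stranded TruSeq kit, without saying which library had which. The authors deposited raw counts per Ensembl gene, used as deposited (0 rows without a gene, 0 columns of other samples). FastQC 0.11.5, STAR 2.7.6a and the build GRCm38 are named per the submitters' processing notes; no source used here names the counting program or its strand setting. GENCODE M21 (GRCm38) gave symbols and positions for 52489 identifiers and RefSeq (GRCm38.p6) the promoter windows.

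In R 4.3.3 with edgeR 4.0.16, genes passing filterByExpr were scaled by TMM and tested by quasi-likelihood F tests without covariates over all genes, with Benjamini-Hochberg adjustment. Each SE was obtained as the absolute log2 fold change over the root of F. The code was checked on simulated counts. CPM used TMM-scaled library sizes.

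The members, lists and rules were chosen with earlier results of these data known. Named genes were the members, the 3 called genes of each of 5 lists with the largest absolute log2 fold change and a mean of at least 5 CPM, 22 genes fixed by name, and the 3 genes most like each member, Gm and Rik models aside. Alternatives were RLE scaling, library size only, DESeq2 1.42.0, no filter, the replicate number as a block, a sex term (Xist or Ddx3y) and each library left out. Some genes of the lists are counted but not reported here by name.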

Additional observations from a re-analysis of the deposited data

How the results depend on the processing

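The log2 fold change of Ptx3 moved by less than the spread between replicates under every alternative run. Lcn2, Hp and Cp stayed above 0 under every one, a direction that the choice of these genes had fixed. Leaving out each library in turn gave log2 fold changes of 3.97 to 8.20 for Lcn2, -0.78 to 6.73 for Saa3, 2.60 to 6.25 for Hp and 4.06 to 5.56 for Cp, the highest in each case without control 2. Between 1 (without knockout 2) and 5 (without control 2) members were called higher, and DESeq2 called 4; these counts support nothing. The sign of Saa3 was positive also without knockout 1 or 3 and with the sex term (0.23, 0.10 and 1.43), at sizes below the spread between replicates.

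For same-numbered libraries the correlations of their deviations from the group means were -0.19, 0.18 and 0.30, and knockout 3 correlated best with control 1 (0.36). The control that stood apart dominates the deviations of the controls, so these correlations cannot tell the other controls from each other. They do not decide whether libraries of the same number were paired, and this was not tested in another way. With the replicate block the log2 fold change was 6.68 for Lcn2 and 3.55 for Saa3, 1038 genes were called higher and 806 lower over all genes, and 0 were lower in the lists of other acute-phase, gp130 and iron genes.

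Without 1 library at a time, 803 to 3617 genes were higher and 548 to 3511 lower over all genes. By list, 4 to 13 were higher and 0 to 2 lower for other acute-phase genes, 3 to 16 and 0 to 2 for gp130 genes, 11 to 24 and 0 to 3 for NF-kB genes, 4 to 10 and 0 to 6 for iron genes, and 2 to 5 and 0 to 2 for pentraxin partners. DESeq2 called 8 gp130 genes higher, 2 acute-phase genes lower and 1 pentraxin partner lower. Without the filter that last count was also 1, and with the sex term 2 iron genes were lower. No share over all genes is given for these settings or for the counts at an unadjusted p, so nothing is read from them. The log2 fold change of Il6 was -1.56 to 2.41 without 1 library at a time, called and positive only without control 2; it was also positive, not called, with the replicate block (0.90). The cause of these changes was not tested. With 3 libraries a group, and 1 of the controls apart, sizes that rest on control 2 have no replicate check.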
